A study of Saccharomyces cerevisiae with 22 samples.

Results

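Peroxisome biogenesis and fatty acid oxidation were followed through 40 genes of Saccharomyces cerevisiae, all of which were found on the array, each with 1 probe set, among 5449 genes measured. They were chosen by name: 18 genes of fatty acid oxidation, its transport steps and the carnitine shuttle, and 22 PEX genes, which build and maintain the organelle. Total RNA came from a strain labelled 4741, grown to mid-log phase in rich medium (YPD) at 30 °C, on 22 Affymetrix arrays. Untreated cells had 2 arrays, heat at 40 °C had 2 (30 and 45 min), and 0.8 M KCl, an osmotic stress, had 2 (30 and 45 min). Hydrogen peroxide at 0.66 mM in cells with no earlier stress, called naive here, had 4 arrays (15, 30, 45 and 90 min). Primed cells spent 45 min in heat or KCl before peroxide at that dose (4 arrays for each first stress, at 15, 30, 45 and 90 min) or before a return to rich medium (2 arrays for each, at 15 and 45 min). Each stress and time had 1 array, and the labels do not say whether the untreated pair came from separate cultures, so the p-values below measure only the spread between these arrays.

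In yeast, fatty acids are broken down in peroxisomes and not in mitochondria. Acyl-CoA enters the organelle, is shortened by the beta-oxidation enzymes, and leaves as acetyl units that the carnitine shuttle or the glyoxylate cycle passes on. The enzymes are made in the cytosol and imported whole: PEX5 recognises a signal at the end of most cargo proteins (PTS1), PEX7 recognises a signal near the start of a few (PTS2), and other PEX proteins dock, recycle and renew these receptors. Genes of the pathway are known to be repressed by glucose, which YPD holds, and induced by oleate through the regulators OAF1, PIP2 and ADR1.

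The values were log2 expression levels, given below mostly as log2 ratios to the mean of the untreated pair, where 1 is a doubling. A level is specific to a probe set and was not compared between genes. Array medians over all genes lay between 10.16 and 10.22, and genes exceeding a background level of 4.62 made up 97.4% to 99.0%. The untreated pair differed over all genes with a standard deviation of 0.142. Of the 40 genes, 37 were above background on all 22 arrays, and the exceptions were POX1 (17 arrays), PEX18 (18) and POT1 (21). As a check of the strain, the MATa genes MFA1, MFA2, STE2, BAR1, AGA2 and ASG7 were above background on 22 arrays. Of 4 MATalpha markers the pheromone gene MF(ALPHA)1 was above it on 0 arrays, and MF(ALPHA)2, STE3 and SAG1 on 22. Of the auxotrophic marker genes URA3 was above it on 0 arrays, LEU2 on 3, MET17 on 5 and HIS3 on 22. In bulk RNA, fewer cells expressing a gene and less of its RNA per cell cannot be told apart.

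**Figure D1:**
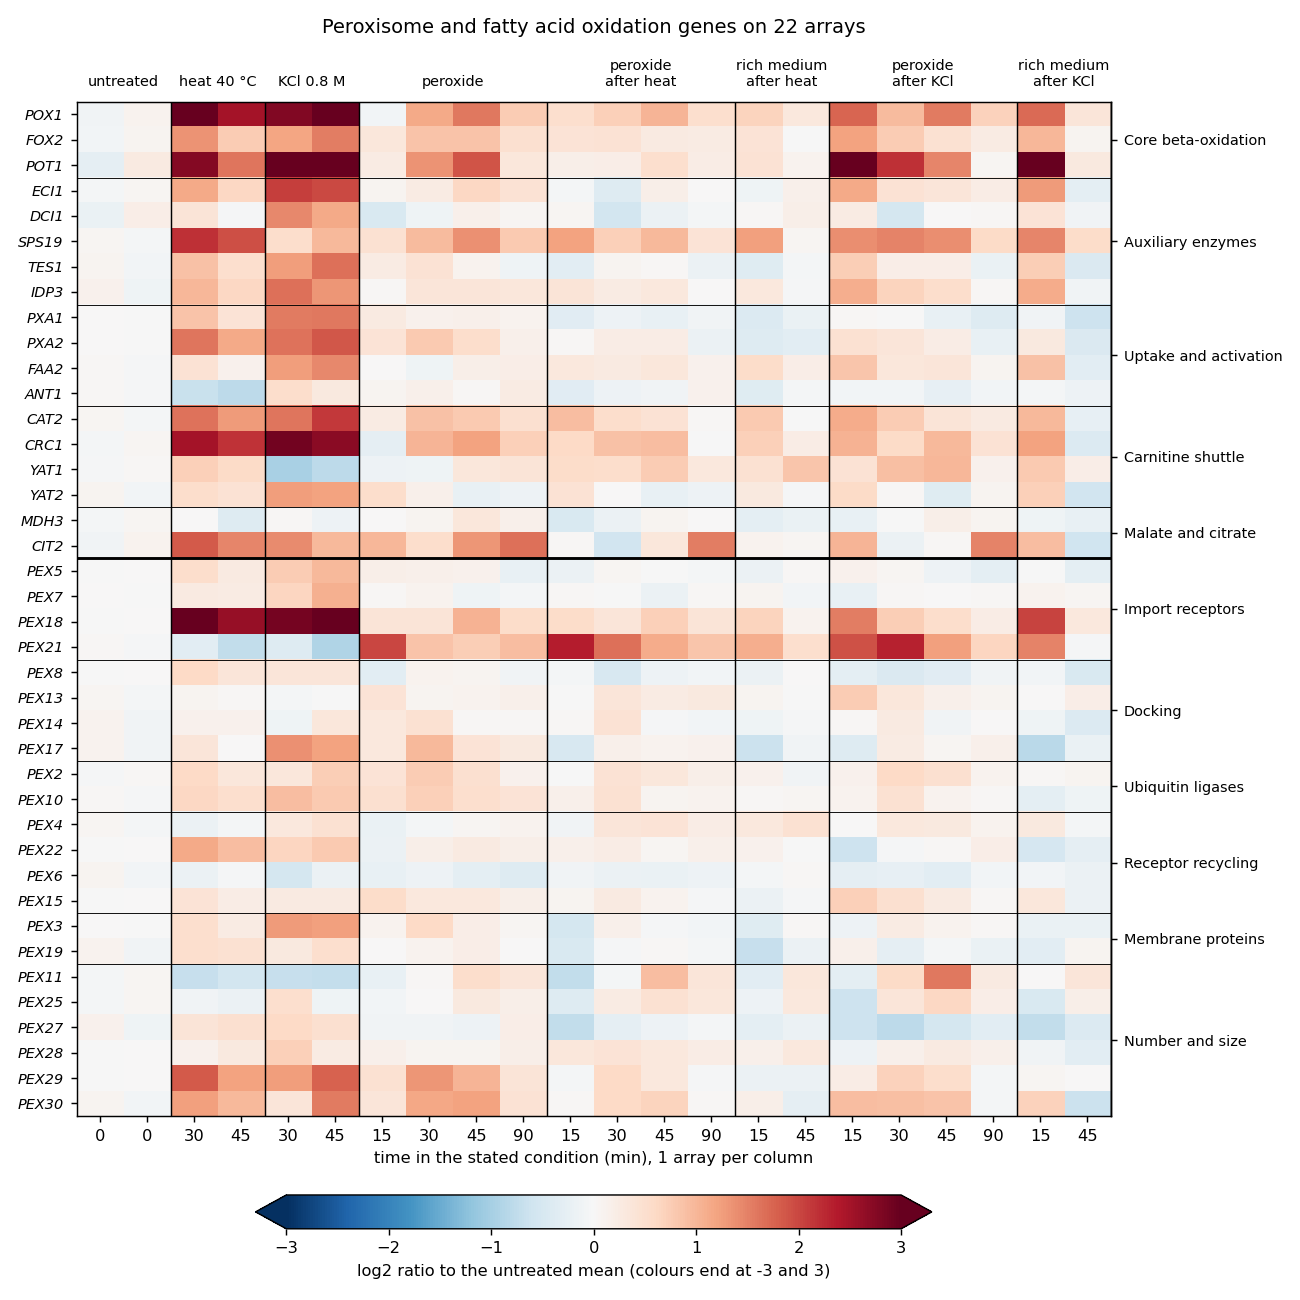
Log2 ratio of each of the 40 genes (rows, grouped by role) to the untreated mean on each of the 22 arrays (columns, with the time in min in the stated condition). Red is above the untreated mean and blue below, and colours end at -3 and 3. The oxidation rows above the thick line are reddest in the heat and KCl columns, where POT1 reached 5.10.

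KCl against untreated cells asked what the osmotic stress did to the pathway. Most of it rose: 30 of the 40 genes were higher, 3 were lower (YAT1, PEX11 and PEX21) and 7 did not pass (limma, adjusted p under 0.05 over all genes, 2 arrays per group). Over all genes tested, 30.2% were higher and 26% lower. Of the 18 oxidation genes 16 were higher and 1 lower, with a median log2 difference of 1.40, and of the 22 PEX genes 14 were higher and 2 lower, with a median of 0.51, against a median of 0.03 over all genes. The 7 that did not pass were MDH3, PEX6, PEX13, PEX14, PEX15, PEX25 and PEX28, with log2 differences from -0.35 to 0.47.

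All 3 core genes of beta-oxidation rose, POT1 the most of the 40 genes and FOX2 by less than the oxidation median. POT1, the thiolase that releases acetyl-CoA and a PTS2 cargo of PEX7, had log2 levels of 4.39 and 4.92 on the untreated arrays, the lower of them below background, and 8.45 and 9.76 after 30 and 45 min of KCl. Both KCl arrays lay far above both untreated arrays. The log2 difference was 4.45 ± 0.51 (SE, adjusted p = 0.000402), which is at least 20.2-fold with the untreated level held at background. POX1, the acyl-CoA oxidase of the first step, stood at 4.15 and 4.37 in untreated cells, both below background, and at 7.03 and 7.40 in KCl. It was at least 6.06-fold higher (log2 difference 2.96 ± 0.30, adjusted p = 0.000225). FOX2, which carries out the middle steps, gave log2 ratios of 1.18 and 1.53 and rose by 1.36 ± 0.22.

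The auxiliary enzymes, which prepare unsaturated chains and recycle cofactors and CoA, were all higher, 5 of 5, with a median of 1.45. ECI1, an enoyl-CoA isomerase, gave log2 ratios of 2.08 and 1.97 (difference 2.03 ± 0.20, adjusted p = 0.000235). IDP3, the peroxisomal isocitrate dehydrogenase that supplies NADPH, gave 1.64 and 1.32, and TES1, an acyl-CoA thioesterase, gave 1.25 and 1.65. Every one of these arrays lay above the untreated pair. SPS19, the dienoyl-CoA reductase that uses this NADPH, rose least of the 5, with ratios of 0.52 and 0.97 (0.74 ± 0.21, adjusted p = 0.0204).

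All 4 genes of uptake and activation rose. PXA1 and PXA2 encode the 2 subunits of the importer of long-chain acyl-CoA, and their log2 ratios were close to each other in KCl: 1.55 and 1.58 for PXA1, and 1.62 and 1.86 for PXA2. The differences were 1.56 ± 0.17 and 1.74 ± 0.19. FAA2, which activates medium chains inside the peroxisome, rose by 1.35 ± 0.17, and ANT1, the ATP carrier of the peroxisomal membrane, by 0.41 ± 0.14 (adjusted p = 0.0375). The ANT1 call ended without either untreated array or the KCl array at 30 min (adjusted p from 0.109 to 0.187).

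In the carnitine shuttle 3 genes rose and 1 fell. CRC1, the mitochondrial carnitine carrier, gave log2 ratios of 2.88 and 2.71 and a difference of 2.80 ± 0.16 (adjusted p = 4.06e-05). CAT2, the carnitine acetyltransferase of peroxisomes and mitochondria, gave 1.61 and 2.12 (1.87 ± 0.21), and YAT2, the cytosolic enzyme of the same reaction, rose by 1.24 ± 0.16. YAT1, its counterpart on the mitochondrial outer membrane, went the other way, at -0.97 and -0.79, below both untreated arrays, and fell by 0.88 on the log2 scale (SE 0.18, adjusted p = 0.00511). CIT2, the peroxisomal citrate synthase, rose by 1.19 ± 0.29, whereas MDH3, the malate dehydrogenase that renews NAD+ in the organelle, gave -0.06 ± 0.18 and did not pass (adjusted p = 0.783).

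Among the PEX genes the import receptors split. PEX18 and PEX21 encode alternative partners of PEX7 in PTS2 import. PEX18 had log2 levels of 4.32 and 4.35 in untreated cells, below background, and 7.20 and 7.85 in KCl. It was at least 7.50-fold higher (difference 3.19 ± 0.33, adjusted p = 0.000271). PEX21 gave log2 ratios of -0.39 and -0.90 and fell by 0.64 on the log2 scale (SE 0.21, adjusted p = 0.0341). The receptors themselves rose less than PEX18, PEX5 by 0.87 ± 0.15 and PEX7 by 0.85 ± 0.17.

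In the docking complex PEX17, a peripheral subunit, gave log2 ratios of 1.38 and 1.22 (1.30 ± 0.22), while PEX13 and PEX14, its membrane core, gave -0.03 ± 0.12 and 0.11 ± 0.21 and did not pass. PEX8, on the inner face of the membrane, rose by 0.37 ± 0.13. PEX10 and PEX2, ubiquitin ligase subunits that act on the receptors, rose by 0.85 ± 0.14 and 0.54 ± 0.19. In receptor recycling PEX22, the membrane anchor of the ubiquitin-conjugating enzyme PEX4, rose by 0.71 ± 0.14 and PEX4 by 0.39 ± 0.13, while PEX6, an ATPase that pulls receptors back out, gave -0.35 ± 0.17 and its anchor PEX15 0.27 ± 0.13, neither past the threshold. PEX3 and PEX19 insert the membrane proteins of the organelle, and rose by 1.25 ± 0.17 and 0.41 ± 0.14.

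Genes that set the number and size of peroxisomes did not move together. PEX29 and PEX30 encode membrane proteins that affect peroxisome number and size. PEX29 gave log2 ratios of 1.26 and 1.76 and rose by 1.51 ± 0.25. PEX30 rose by 0.96 ± 0.34, with its KCl arrays apart at 0.37 and 1.55. PEX11, which promotes peroxisome division, gave log2 ratios of -0.70 and -0.72. It fell by 0.71 on the log2 scale (SE 0.18, adjusted p = 0.0134). Of its relatives, PEX27 rose by 0.54 ± 0.14 and PEX25 gave 0.18 ± 0.22. Of the 33 calls in KCl 22 held in all 4 fits that leave out an array. The other 11 were those of ANT1, CIT2, SPS19, PEX2, PEX4, PEX8, PEX11, PEX19, PEX21, PEX27 and PEX30 (adjusted p from 0.0527 to 0.281 where lost). PEX11 and PEX21 were each lost without either untreated array, and PEX21 also without the KCl array at 45 min (adjusted p = 0.147). With time as a block PEX2, PEX8, PEX19 and PEX30 were not past the threshold (0.0514 to 0.0604). PEX4, PEX27 and PEX30 were not past the threshold after quantile normalization or in the authors' deposited table, nor SPS19 after quantile normalization (adjusted p = 0.261).

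Heat at 40 °C was compared with the same untreated arrays. In heat 22 of the 40 genes were higher, 2 were lower (ANT1 and PEX11) and 16 did not pass, where 27.5% of all genes were higher and 22.4% lower. Of the oxidation genes 14 were higher, 1 lower and 3 not past the threshold (DCI1, FAA2 and MDH3), with a median log2 difference of 0.85. Of the PEX genes 8 were higher and 1 lower, with a median of 0.35, and the median over all genes was 0.07. After quantile normalization the members split 16 higher and 4 lower.

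The genes at the top were again PEX18, POX1 and CRC1. PEX18 gave log2 ratios of 3.39 and 2.62 after 30 and 45 min (at least 6.61-fold, difference 3.01 ± 0.33, adjusted p = 0.000674). POX1 gave 3.31 and 2.49 (at least 5.82-fold, 2.90 ± 0.30), and CRC1 gave 2.50 and 2.17 (2.34 ± 0.16). POT1 gave 2.75 and 1.59, both above the untreated pair, and rose at least 4.16-fold (2.17 ± 0.51, adjusted p = 0.011). This call is near the threshold, with an adjusted p of 0.0552 after quantile normalization and 0.0511 in the authors' deposited table.

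SPS19 rose by 2.06 ± 0.21 in heat (ratios of 2.18 and 1.94, adjusted p = 0.000516). CIT2 gave 1.85 and 1.46 (1.65 ± 0.29), CAT2 gave 1.63 and 1.27 (1.45 ± 0.21) and PXA2 gave 1.62 and 1.15 (1.38 ± 0.19). Each of these arrays lay above the untreated pair. Among the PEX genes PEX29 gave 1.84 and 1.21 (1.52 ± 0.25), PEX30 gave 1.24 and 0.97 (1.11 ± 0.34) and PEX22 gave 1.14 and 0.94 (1.04 ± 0.14). The PEX30 call ended in every fit that leaves out an array, with log2 differences from 0.97 to 1.24. So did the heat calls of PEX19, PEX27 and YAT2. FOX2 gave 1.36 and 0.76 (1.06 ± 0.22).

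ANT1 gave -0.66 and -0.79 in heat, below both untreated arrays, and fell by 0.72 on the log2 scale (SE 0.14, adjusted p = 0.00488). PEX11 fell by 0.61 on the log2 scale (SE 0.18, adjusted p = 0.0277), close to its value in KCl, and this call ended in each of the 4 fits that leave out an array (adjusted p from 0.0527 to 0.153). The heat calls rested on few arrays: without the heat array at 30 min, or without either untreated array, fewer members were called. Calls over all genes dropped in these fits too, and the share of members called was then near that of all genes. The YAT1 call (0.64 ± 0.18) ended after quantile normalization (adjusted p = 0.335) and in the authors' deposited table (0.218).

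In heat the oxidation genes were lower at the later time. All 18 had a lower value at 45 than at 30 min, with a median change of -0.39 on the log2 scale, and 16 of the 22 PEX genes were lower, with a median of -0.17. Over all genes 3197 of 5449 were lower, with a median of -0.06. In KCl 10 of the 18 oxidation genes and 13 of the 22 PEX genes were higher at 45 than at 30 min, with medians of 0.10 and 0.09. These counts were near that of all genes, where 2732 of 5449 were higher, with a median of 0.001. These are differences between 2 arrays and carry no test.

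Other measures moved with the stresses. The summed level of 4 meiosis markers (IME1, IME2, SPO11 and NDT80), as a log2 value, was 9.47 to 9.63 in untreated cells, 10.17 to 10.50 in heat and 10.83 to 11.17 in KCl, and 3 of the 4 rose in each stress. That of 6 MATa markers was 15.17 to 15.24 in untreated cells, 14.25 to 14.47 in heat and 14.19 to 14.40 in KCl, with 4 lower and 1 higher in each. Of 4 MATalpha markers 1, STE3, rose in each, and the sum was 8.87 to 9.12 in untreated cells, 9.45 to 9.63 in heat and 9.03 to 9.19 in KCl. In naive peroxide MF(ALPHA)2 rose by 1.77 ± 0.26 (adjusted p = 0.00656) and the meiosis marker NDT80 by 1.02 ± 0.21 (adjusted p = 0.0205), 1 marker of 4 in each list, and 0 of the 6 MATa markers were called. RNA quality was read from 3′ minus 5′ log2 signals. For SPT15 this difference was 1.71 and 1.62 in heat against 1.23 and 1.28 in untreated cells. For SRB4 it was 1.81 and 1.42 in KCl against 2.38 and 2.26. For ACT1 it lay between 0.36 and 0.68 on all 22 arrays. The part of these measures in the results was not tested.

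KCl against heat was then tested directly, which does not use the untreated arrays in the difference. KCl was higher for 14 members and lower for 2, where 15.2% of all genes were higher and 15.4% lower. The oxidation genes gave 9 higher and 2 lower of 18, with a median log2 difference of 0.57, and the PEX genes 5 higher and 0 lower of 22, with a median of 0.03. The median over all genes was -0.01.

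POT1 was 4.85-fold higher in KCl than in heat (log2 difference 2.28 ± 0.51, adjusted p = 0.0163), its KCl arrays at 3.80 and 5.10 lying above its heat arrays at 2.75 and 1.59. ECI1 was higher by 1.14 ± 0.20, with 2.08 and 1.97 in KCl against 1.14 and 0.63 in heat. ANT1 was higher by 1.14 ± 0.14 (adjusted p = 0.00275), with 0.52 and 0.30 in KCl and -0.66 and -0.79 in heat, above the untreated pair in the former and below it in the latter, although its KCl call against untreated cells did not hold without 1 array, as given above. PXA1 was higher by 0.93 ± 0.17, with 0.86 and 0.41 in heat. DCI1, a relative of ECI1, FAA2, TES1, YAT2 and IDP3 were also higher in KCl, by 0.67 to 1.12.

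YAT1 and SPS19 were the reverse. YAT1 was 2.87-fold lower in KCl, with ratios of 0.71 and 0.58 in heat (log2 difference -1.52 ± 0.18, adjusted p = 0.0024). SPS19 was 2.49-fold lower (-1.32 ± 0.21, adjusted p = 0.00564). The groups did not overlap for either gene. YAT2, which catalyses the same reaction as YAT1, had a positive difference between KCl and heat (0.77 ± 0.16).

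The 5 PEX genes higher in KCl were PEX17 (1.12 ± 0.22), PEX3 (0.86 ± 0.17), PEX7 (0.59 ± 0.17), PEX4 (0.50 ± 0.13) and PEX5 (0.47 ± 0.15, adjusted p = 0.0488). In heat PEX17 gave 0.36 and 0.00, PEX3 gave 0.51 and 0.26, and PEX7 gave 0.26 and 0.25. POX1, PEX18 and CRC1, far above the untreated level in both stresses, did not pass, with differences of 0.06 ± 0.30, 0.18 ± 0.33 and 0.46 ± 0.16 (the last with adjusted p = 0.0684). Without the heat array at 45 min fewer members were called, and POT1 was among those lost, with a log2 difference of 1.70. Calls over all genes dropped in that fit too, and the share of members called was then near that of all genes. Without the KCl array at 45 min POT1 was also not past the threshold (adjusted p = 0.052). Each of the 5 PEX calls ended without the heat array at 45 min (adjusted p from 0.0549 to 0.195), and PEX5 also in a robust fit with a trend (0.0512). With time as a block PEX5 and PEX7 were not past the threshold (0.071 and 0.0578). In all 4 fits that leave out an array 6 of the 16 calls held, those of ANT1, ECI1, FAA2, PXA1, SPS19 and YAT1.

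**Figure D2:**
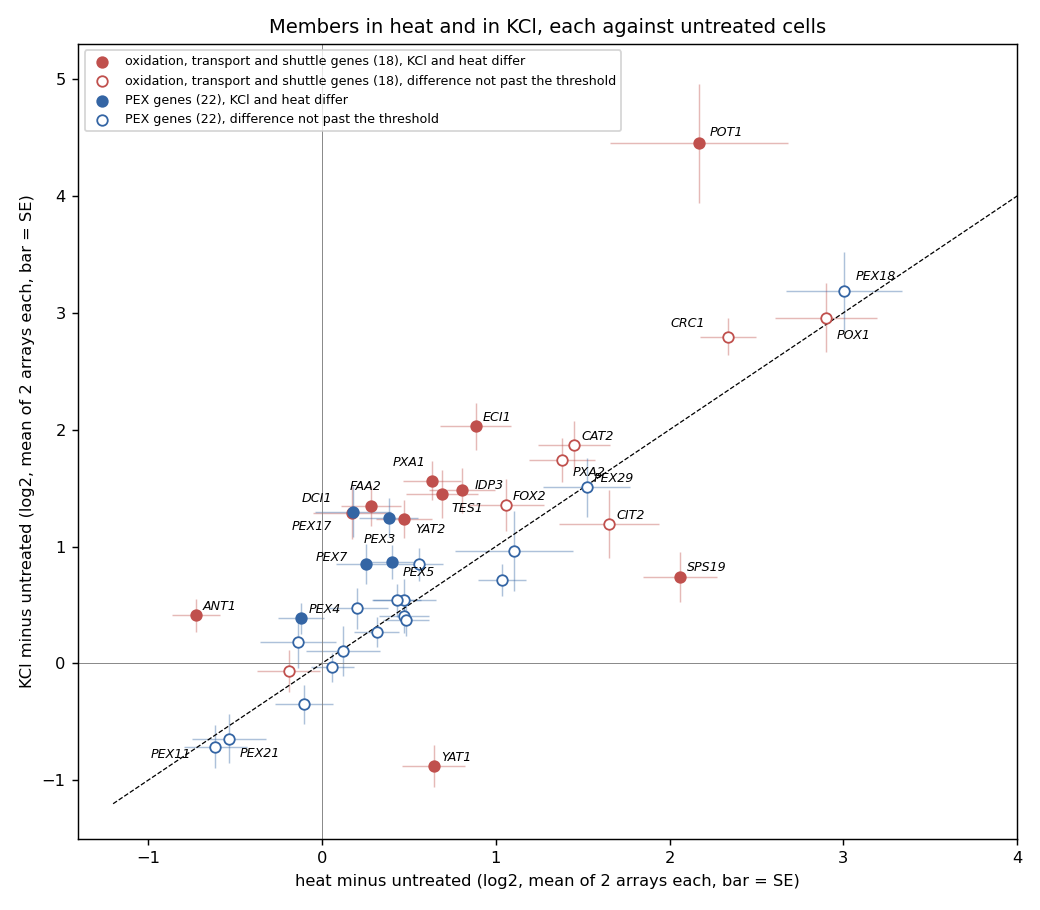
Log2 difference from untreated cells in heat (horizontal axis) and in KCl (vertical axis) for the 40 genes, 2 arrays per group, with limma standard errors as bars. Both axes share the untreated arrays, and the dashed line marks equal values. Filled points differ between KCl and heat: POT1 lies highest above the line, and YAT1 and SPS19 lie below it.

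For naive peroxide the arrays at 30 and 45 min, matching the heat and KCl times, were set against the untreated pair. In peroxide 8 members were higher and 0 lower, where 11.2% of all genes were higher and 7.18% lower. At an unadjusted p under 0.05 there were 15 of the 40, near the share of all genes, which was 1956 of 5449. The 8 were 5 oxidation genes (POX1, FOX2, SPS19, CAT2 and CRC1) and 3 PEX genes (PEX10, PEX21 and PEX29), and the medians were 0.40 for the oxidation genes, 0.23 for the PEX genes and -0.03 for all genes.

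POX1 gave log2 ratios of 1.13 and 1.59 at 30 and 45 min and was at least 2.0-fold higher (difference 1.36 ± 0.30, adjusted p = 0.0235). PEX29 gave 1.31 and 1.03 (1.17 ± 0.25), SPS19 gave 0.95 and 1.37 (1.16 ± 0.21) and CRC1 gave 1.03 and 1.21 (1.12 ± 0.16, adjusted p = 0.00618). FOX2 gave 0.86 and 0.84, and CAT2 0.87 and 0.79. All of these lay above the untreated pair. The POX1 call ended after quantile normalization (adjusted p = 0.0586) and in the authors' deposited table, where the difference was 0.71 (adjusted p = 0.23). SPS19 and CAT2 were not past the threshold after quantile normalization (0.0586 and 0.0765), nor FOX2 and CAT2 with time as a block (0.0595 and 0.055). POT1 gave 1.35 and 1.90 but did not pass (1.62 ± 0.51, adjusted p = 0.0651).

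PEX21 had its highest value early in peroxide. Its ratio was 2.0 at 15 min, then 0.85, 0.74 and 0.93 at 30, 45 and 90 min, all above the untreated pair, and it rose by 0.79 ± 0.21 at 30 and 45 min (adjusted p = 0.0417). It was thus above the untreated pair in peroxide and below it in KCl. The peroxide call ended after quantile normalization (adjusted p = 0.062), in the authors' deposited table (0.0701) and in each fit that leaves out an array (0.0979 to 0.213). PEX18 gave 0.39, 0.40, 1.05 and 0.56 at the same 4 times and did not pass (adjusted p = 0.165).

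CIT2 gave 0.99, 0.53, 1.33 and 1.65, highest at 90 min, and did not pass at 30 and 45 min (adjusted p = 0.0631). The peroxide calls depended on the arrays: without either untreated array, or without the array at 30 or 45 min, fewer members and fewer of all genes were called. With all 4 times 0 members were called, and 0 of all 5449 genes were. With 15 and 30 min 0 members were called, beside 198 of all genes.

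**Figure D3:**
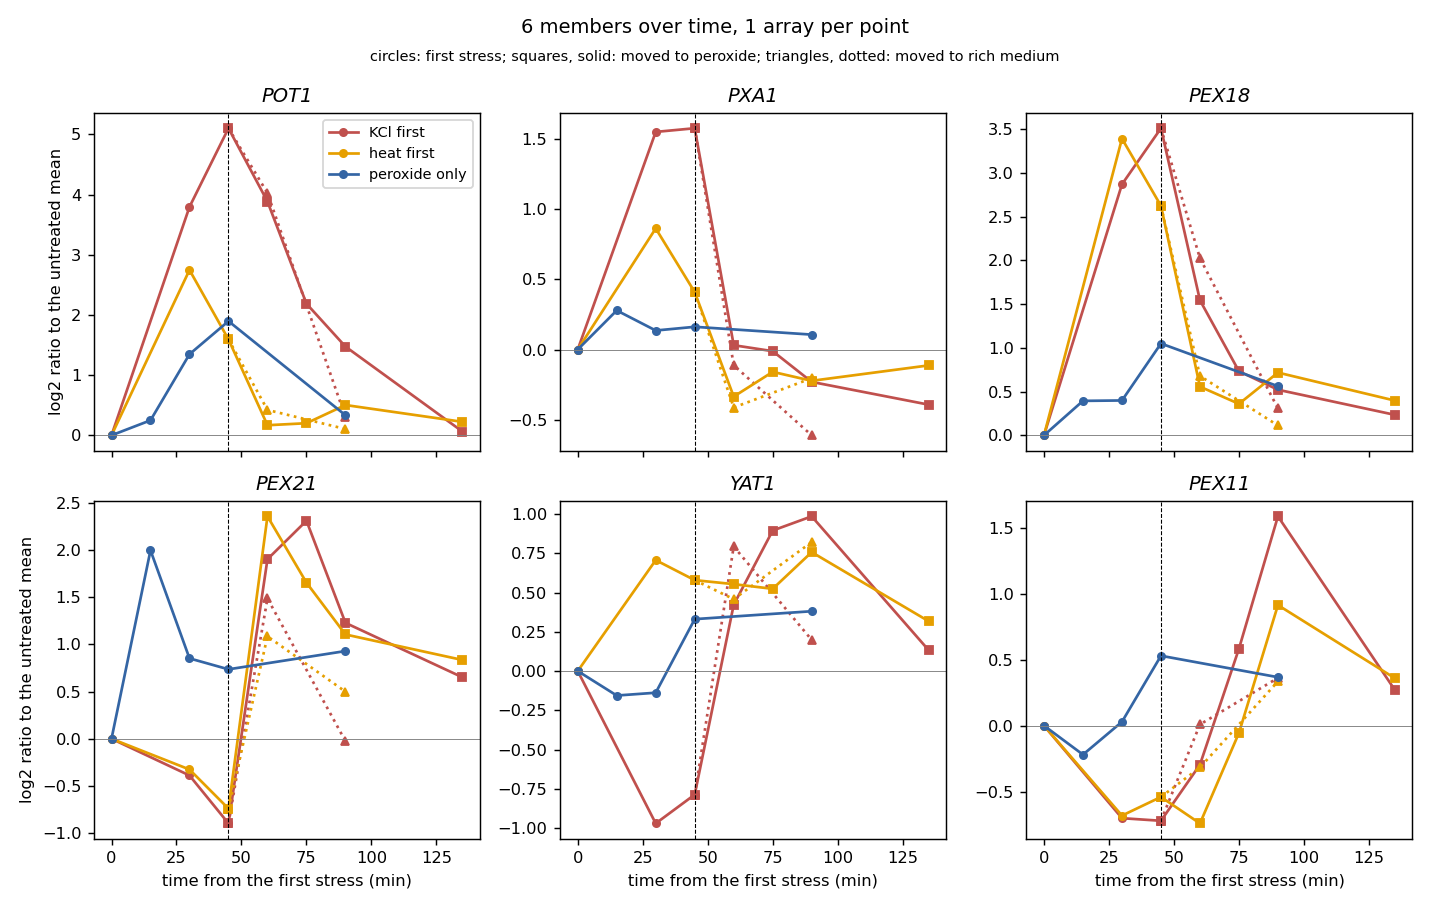
Log2 ratio to the untreated mean (vertical axis) against minutes from the first stress (horizontal axis) for POT1, PXA1, PEX18, PEX21, YAT1 and PEX11, with 1 array per point. Lines after 45 min follow the move to peroxide (solid, squares) or to rich medium (dotted, triangles). After KCl, POT1 was still at 1.47 after 45 min of peroxide, whereas PXA1 was near the untreated mean within 15 min and PEX21 went from -0.90 to 1.90 in peroxide.

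The 3 peroxide series were then compared at matched times to ask whether an earlier mild stress changed the pathway's response to peroxide. Between KCl-primed and naive cells 0 of the 40 members were called by limma, and 0.147% of all genes were. At an unadjusted p under 0.05 there were 11 members, beside 1019 of all 5449 genes. The largest positive differences were those of POT1 (0.95 ± 0.62), YAT1 (0.50 ± 0.18) and PEX21 (0.39 ± 0.24), and the largest negative those of CIT2 (-0.53 ± 0.23), PEX27 (-0.52 ± 0.11) and PEX17 (-0.48 ± 0.12). The smallest adjusted p of a member was 0.0989.

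Heat-primed cells were lower than naive cells for 2 members and higher for 0, where 1.8% of all genes were lower and 1.54% higher. PEX29 gave -0.05, 0.59, 0.32 and -0.03 in heat-primed peroxide at 15, 30, 45 and 90 min, against 0.45, 1.31, 1.03 and 0.38 in naive peroxide. It was lower at all 4 times (log2 difference -0.58 ± 0.089, adjusted p = 0.0346). PEX10 gave 0.15, 0.45, 0.09 and 0.10 against 0.49, 0.71, 0.51 and 0.42, also lower each time (-0.34 ± 0.065, adjusted p = 0.0442). Both calls ended without the naive array at 30 or 45 min, or the heat-primed array at 15, 30 or 45 min (adjusted p from 0.113 to 0.198). Without the heat-primed array at 90 min 8 members were called, and without the naive array at 15 or 90 min 4 and 7. Calls over all genes rose in these fits too, from 3.34% to as much as 15.2%, so the rise was not confined to the members.

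Between KCl-primed and heat-primed peroxide 0 members were called by limma, and 0.128% of all genes were. At an unadjusted p under 0.05 there were 4 of the 40 members, beside 1112 of all 5449 genes. POT1 differed most, at 1.63 ± 0.62 (adjusted p = 0.219). It stood at 3.89, 2.19, 1.47 and 0.06 in KCl-primed cells and at 0.17, 0.20, 0.50 and 0.22 in heat-primed cells, higher after KCl at 15, 30 and 45 min and lower at 90 min. ECI1 (0.61 ± 0.20) and POX1 (0.55 ± 0.29) came next.

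The difference between the primed series was greatest at 15 min, which can be read against the arrays taken at the end of the first stress. After 45 min of KCl 19 members were at least 2-fold above the untreated mean (17.3% of all genes were), and 15 min later 8 of them were still so in peroxide and 7 in rich medium. For the oxidation genes these were 7 and 6 of 13 (medians of 1.05 and 0.96 from 1.65), and for the PEX genes 1 and 1 of 6 (medians of 0.04 and 0.08 from 1.39). Of all genes 942 were 2-fold up at the end of KCl, and 39.1% were still so in peroxide and 31.1% in rich medium. After 45 min of heat 9 members were 2-fold up (11.2% of all genes were), and 15 min after the move 1 was still so in each medium, against 24.1% and 21.9% of 611 genes. Each of these is 1 array, with no test. Members and all genes alike were picked by their value on the last array of the first stress. Such a choice by itself favours lower values afterwards.

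POT1 was at 5.10 at the end of KCl and at 3.89 in peroxide and 4.03 in rich medium 15 min later. POX1 went from 3.15 to 1.75 and 1.70, and PEX18 from 3.51 to 1.54 and 2.02. For these genes both media gave values below the KCl array and above the untreated pair. PXA1 went from 1.58 to 0.03 and -0.11, near the untreated mean, while POT1 was not. PXA2 went from 1.86 to 0.46 and 0.29, still above the untreated pair. PEX17 went from 1.22 to -0.38 and -0.81, and PEX3 from 1.22 to -0.14 and -0.20, both below the untreated mean.

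**Figure D4:**
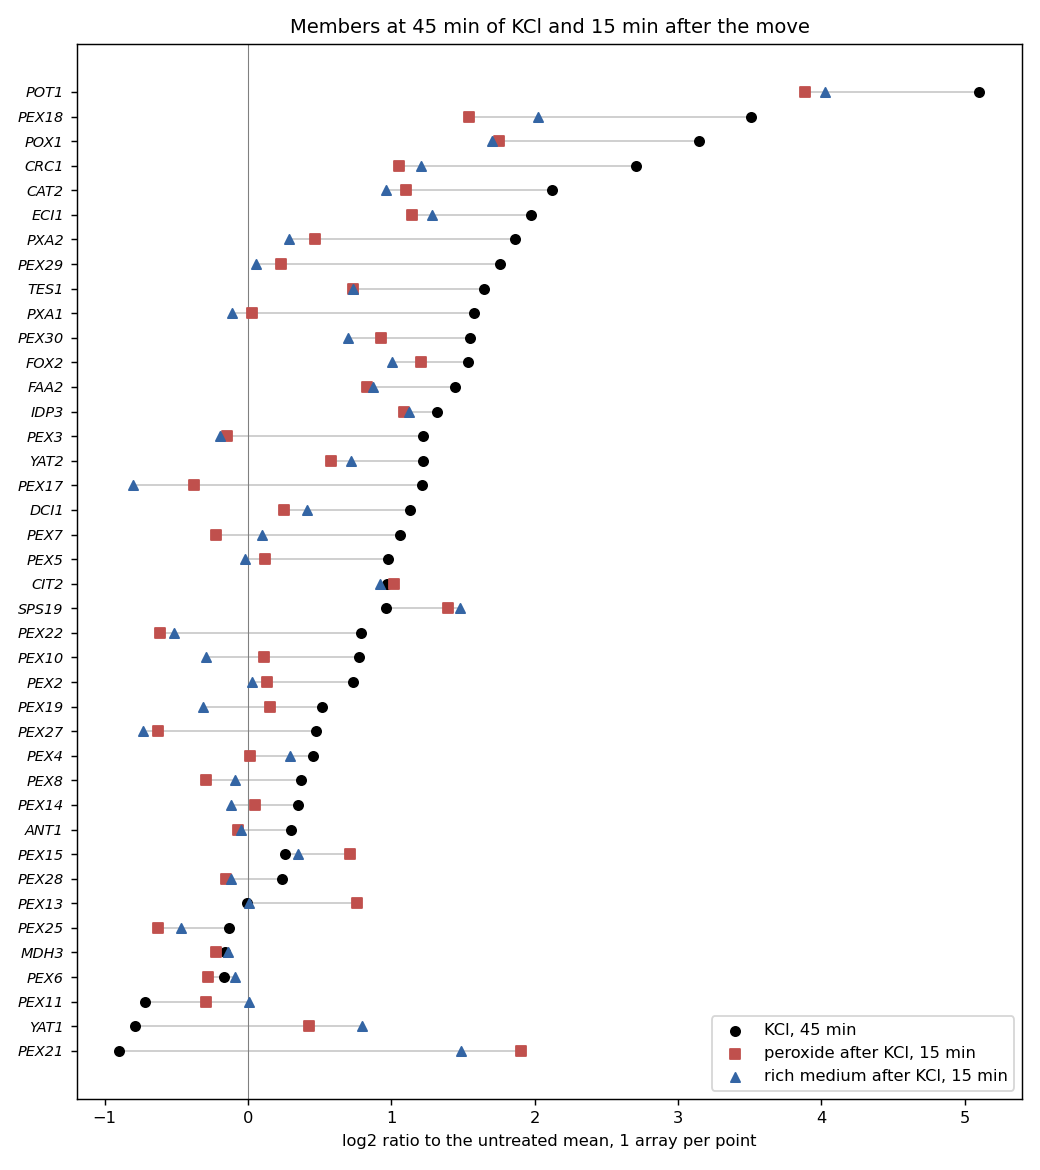
Log2 ratio to the untreated mean (horizontal axis) for the 40 genes after 45 min of KCl (circles) and 15 min after the move to peroxide (squares) or rich medium (triangles), 1 array per point. For most genes the square and the triangle lie together. POT1 stays highest, at 3.89 and 4.03, and PEX21 and YAT1 cross from below to above the untreated mean.

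The genes that fell in KCl were above the untreated mean later. YAT1 went from -0.79 to 0.42, 0.90, 0.99 and 0.13 in peroxide and to 0.79 and 0.20 in rich medium. PEX21 went from -0.90 to 1.90, 2.31, 1.23 and 0.65 in peroxide and to 1.49 and -0.03 in rich medium. PEX11 went from -0.72 to -0.30, 0.58, 1.59 and 0.27 in peroxide and to 0.01 and 0.36 in rich medium, so its highest array of all was KCl-primed peroxide at 45 min. After heat PEX21 stood at 2.36, 1.65, 1.10 and 0.83 in peroxide and PEX11 at -0.74, -0.06, 0.92 and 0.36. SPS19 did not decline at once after KCl: from 0.97 it was at 1.40 in peroxide and 1.48 in rich medium at 15 min.

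CIT2 dipped and returned in both primed series, and its naive values, given above, were likewise lowest at 30 min. It stood at 1.02, -0.18, 0.04 and 1.49 after KCl and at 0.04, -0.57, 0.34 and 1.54 after heat, at 15, 30, 45 and 90 min of peroxide. At 90 min the 3 peroxide series lay between 1.49 and 1.65. No other member was at least 2-fold from the untreated mean at 90 min in any of the 3 series. Of all genes, 2.26% were at least 2-fold higher and 0.184% lower at that time in naive, 1.16% and 0.514% in KCl-primed, and 0.532% and 0.367% in heat-primed peroxide.

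Cells back in rich medium, at 15 and 45 min, were set against untreated cells, against each other, and against cells in peroxide. In the 5 comparisons 0 members were called by limma, also with time as a block in the first 3. Rich medium after KCl against untreated cells had 2 members with an unadjusted p under 0.05, beside 405 of all 5449 genes. By adjusted p 0% of all genes were called. POT1 gave 2.16 ± 1.18, with arrays at 4.03 and 0.30, PEX18 1.17 ± 0.57 and POX1 1.03 ± 0.45, and the lowest were PEX27 (-0.57 ± 0.18), PEX17 (-0.50 ± 0.28) and PEX22 (-0.39 ± 0.15). Without the array at 45 min some members were called, but calls over all genes rose too, so the rise was not confined to the members.

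Rich medium after heat against untreated cells had 1 member with an unadjusted p under 0.05, beside 288 of all 5449 genes. By adjusted p 0% of genes were called. PEX21 (0.79 ± 0.52), SPS19 (0.65 ± 0.48) and YAT1 (0.64 ± 0.25) were highest. PEX19 (-0.44 ± 0.25), PEX17 (-0.38 ± 0.28) and PXA2 (-0.35 ± 0.26) were lowest. Rich medium after KCl against that after heat had 2 members with an unadjusted p under 0.05, beside 416 of all 5449 genes. By adjusted p 0% of genes were called. POT1 (1.90 ± 1.18), PEX18 (0.77 ± 0.57) and POX1 (0.55 ± 0.45) were highest. PEX22 (-0.44 ± 0.15), PEX28 (-0.44 ± 0.14) and PEX27 (-0.33 ± 0.18) were lowest. Rich medium after KCl against that after heat had some calls over all genes once the array at 45 min after KCl was left out. In both comparisons the spread between the arrays at 15 and 45 min enters the error.

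Peroxide against rich medium, which sets apart what peroxide added, had 2 members with an unadjusted p under 0.05 after KCl and 1 after heat. Of all 5449 genes 400 and 230 had such a p, and 0.165% were called each time. PEX21 was among the highest both times, at 0.83 ± 0.26 after KCl (adjusted p = 0.623) and 0.94 ± 0.26 after heat (adjusted p = 0.807). After KCl it stood beside PEX30 (0.87 ± 0.44) and POX1 (0.62 ± 0.41), and the lowest were PEX7 (-0.18 ± 0.16), PEX6 (-0.17 ± 0.13) and PEX18 (-0.13 ± 0.42). After heat PXA2 (0.47 ± 0.24) and SPS19 (0.45 ± 0.31) came next, and the lowest were PEX4 (-0.23 ± 0.23), PEX27 (-0.20 ± 0.17) and DCI1 (-0.16 ± 0.19).

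**Figure D5:**
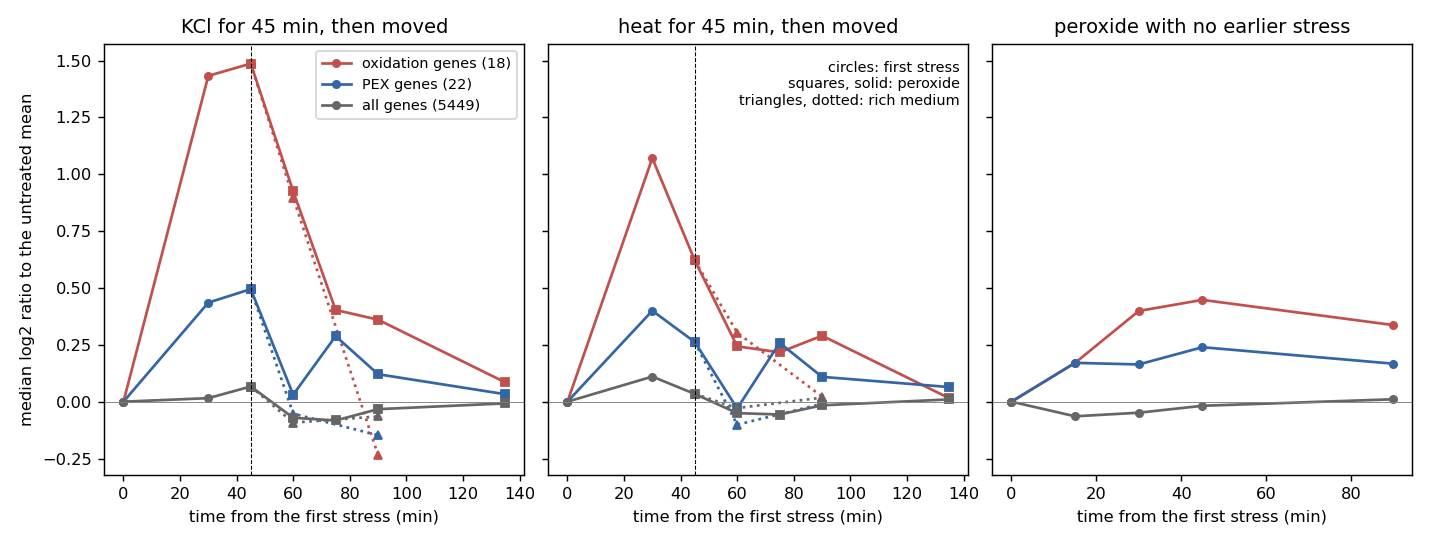
Median log2 ratio to the untreated mean (vertical axis) of the 18 oxidation genes, the 22 PEX genes and all 5449 genes against minutes from the first stress (horizontal axis), 1 array per point. The oxidation median was highest after 45 min of KCl, at 1.49, and stood at 0.92 in peroxide and 0.90 in rich medium 15 min later, while the PEX median was at 0.03 and -0.05.

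Genes around the pathway were read from 4 further lists. Their counts stand beside the shares of all genes given above, 30.2% higher and 26% lower in KCl, 27.5% and 22.4% in heat, and 11.2% and 7.18% in naive peroxide. Of 19 other peroxisome genes 9 rose in KCl and 0 fell, and in heat 7 rose and 1 fell, near the share of all genes that rose in heat. PNC1, a nicotinamidase, and GPD1, the glycerol phosphate dehydrogenase that carries a PTS2 signal and brings PNC1 into peroxisomes, rose in KCl by 2.89 ± 0.15 and 2.89 ± 0.19 and in heat by 2.69 ± 0.15 and 2.16 ± 0.19. Both also rose in naive peroxide (1.91 ± 0.15 and 1.47 ± 0.19), where 6 of the 19 rose and 1, PEX31, fell. The peroxisomal catalase gene CTA1 gave 3.14, 2.80, 0.71 and -0.46 in naive peroxide at 15, 30, 45 and 90 min, and was higher in KCl than in heat by 2.12 ± 0.57 (adjusted p = 0.0301). In that comparison 4 of the 19 were higher (CTA1, GPD1, INP1 and PEX32) and 3 lower (STR3, LPX1 and FIS1). These counts were near the shares of all genes, 15.2% higher and 15.4% lower. STR3, a cystathionine beta-lyase, had the largest difference, at -2.47 ± 0.70 (adjusted p = 0.0348).

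Of 8 genes of the glyoxylate cycle, acetate use and gluconeogenesis 7 rose in KCl, and in heat 4 rose and 1 fell. ICL1, isocitrate lyase, had log2 ratios of 2.74 and 2.45 in KCl and 0.09 and 0.06 in heat, a difference of 2.52 ± 0.16 (adjusted p = 0.000289). MLS1, malate synthase, which follows it in the cycle, rose in both, by 2.01 ± 0.20 in KCl and 1.42 ± 0.20 in heat. In naive peroxide MLS1 was the only one of the 8 past the threshold.

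Of 14 regulators 5 rose in KCl, 6 in heat and 1 in naive peroxide, and 0 fell, so that the counts of those that rose in KCl and in peroxide were near the shares of all genes. SIP4 and CAT8, activators of genes for growth without glucose, rose by 3.12 ± 0.35 and 2.43 ± 0.20 in KCl and by 2.86 ± 0.35 and 2.24 ± 0.20 in heat. ADR1 rose in KCl (1.64 ± 0.32) and gave 0.66 ± 0.32 in heat (adjusted p = 0.121), with a difference between the stresses of 0.98 ± 0.32 that did not pass (adjusted p = 0.0548). PIP2 rose by 0.61 ± 0.17 in KCl and 0.69 ± 0.17 in heat, and its partner OAF1 rose by 0.89 ± 0.23 in heat.

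FAA1, FAA3 and FAA4, acyl-CoA synthetases other than FAA2, differed among themselves. FAA1 rose in KCl and in heat (1.24 ± 0.20 and 1.38 ± 0.20), FAA4 fell in both by 1.59 and 2.23 on the log2 scale (SE 0.56 each), and FAA3 fell in KCl by 1.30 on the log2 scale (SE 0.21). In naive peroxide none of these 3 passed (adjusted p from 0.0613 to 0.977).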

How the data were processed

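The authors deposited log2 expression values per probe set, made with RMA per the submitters' processing notes; version and settings are not given in the sources used here. For 5900 of the 10928 probe sets the authors also deposited ratios to time 0 on a log2 scale, per the file headers, which served only as an alternative. Probe sets were joined to genes through the array's annotation: 5498 named exactly 1 yeast gene, and the brightest was kept for 47 genes with several, which left 5449 genes. Background was the 95th percentile over 1746 probe sets whose gene the table of yeast genes lacks. No further scaling or filter was applied.

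Differences were fitted over all 5449 genes by lmFit and eBayes of limma 3.58.1 (R 4.3.3) in 12 comparisons, and p-values were adjusted by Benjamini-Hochberg, with a threshold of 0.05. Stresses against untreated cells and each other used 8 arrays, and returns to rich medium 6, with 1 level per group. The peroxide series used 12 arrays, and peroxide against rich medium 8, with terms for group and time. Within a group the spread includes the change between times. A fold against an untreated level below background was computed from the background level and is a lower bound. The number of arrays limits the precision. The fit was tested on simulated data. Alternatives were quantile normalization, a median shift, leaving out the dimmest 25% of genes, averaging several probe sets of 1 gene, the authors' fold table, a robust fit with a trend, a 2-fold minimum, other peroxide times, time as a block (added after seeing the data) and leaving out each array.

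The members and lists were chosen with earlier results of these data known. Values by array were for the largest called differences (up to 12 genes for heat or KCl, up to 6 otherwise); those of YAT1, PEX11, PEX17, PEX21, PEX30, SPS19 and CIT2 and of genes after the move were added after their values were seen.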

Additional observations from a re-analysis of the deposited data

Results flagged for a closer look

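In the 3 peroxide series 120 sets of 4 arrays were checked for an array standing apart from the rest of its set, and 12 did, where chance gives about 1 in 20. Values are log2 ratios to the untreated mean. At 15 min the naive array stood lowest for IDP3 (0.0286) and highest for PEX21 (2.0), the heat-primed array lowest for PEX17 (-0.49), and the KCl-primed array lowest for PEX7 (-0.22). At 30 min the heat-primed array stood highest for PEX10 (0.45). At 45 min the heat-primed array stood highest for POT1 (0.50) and lowest for PEX7 (-0.18), and the KCl-primed array lowest for ANT1 (-0.26). At 90 min the naive array stood lowest for PEX5 (-0.22) and highest for PEX27 (0.19), and the KCl-primed array lowest for SPS19 (0.58) and PEX30 (-0.0500). The times of a set differ by design, so an array that stands apart can be a time that does.

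The KCl and heat responses differed by the direct test in 16 members. The log2 difference of KCl minus heat was 2.28 for POT1, 1.14 for ECI1, 1.14 for ANT1, 1.12 for PEX17, 1.12 for DCI1 and 1.06 for FAA2. It was 0.93 for PXA1, 0.86 for PEX3, 0.77 for YAT2, 0.76 for TES1, 0.67 for IDP3, 0.59 for PEX7, 0.50 for PEX4 and 0.47 for PEX5. It was negative for SPS19 (-1.32) and YAT1 (-1.52). PEX13 had opposite signs on the arrays of the 2 stresses, with a difference of -0.10 that did not pass the direct test (limma adjusted p = 0.581).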

How the results depend on the processing

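No paired analysis was possible because the labels give no replicate numbers that groups share, but shared times could be fitted as a block, an alternative chosen after seeing the data. It gave 29 members for KCl, 24 for heat, 7 for naive peroxide and 14 for KCl against heat, and 0 for the returns to rich medium, where 57, 11 and 11 of all genes were called and not 0. Counts below are members called in either direction, beside 33 for KCl, 24 for heat and 8 for naive peroxide against untreated, 16 for KCl against heat and 2 for heat-primed against naive peroxide. Leaving out the dimmest 25% of genes, which keeps 20 of the 40 members, gave 16, 12, 4, 5 and 4. Requiring at least a 2-fold difference gave 18, 12, 4, 8 and 0. Quantile normalization gave 4 for naive peroxide, all 4 peroxide times gave 0, and 15 and 30 min gave 0. Other alternatives kept each count within 1.5 times, and no called member reversed in any alternative run. Leaving out 1 array at a time gave 23 to 30 for KCl, 11 to 20 for heat, 0 to 3 for naive peroxide, 6 to 16 for KCl against heat and 0 to 8 for heat-primed against naive peroxide. It gave 0 to 2 for KCl-primed against naive peroxide (2 without the naive array at 90 min), 0 to 4 for rich medium after KCl and 0 to 1 for rich medium after KCl against that after heat. It gave 0 to 0 for rich medium after heat, KCl-primed against heat-primed peroxide and both comparisons of peroxide with rich medium. Over all genes the calls of heat-primed against naive peroxide went from 182 to 434 after quantile normalization, 344 without the dimmest genes, 333 in the authors' deposited table, 312 with a robust trended fit and 29 at 2-fold. At 2-fold KCl went from 3062 to 1604, heat from 2721 to 1292, naive peroxide from 1001 to 485 and KCl against heat from 1668 to 581. Naive peroxide gave 0 with all 4 times and 198 at 15 and 30 min. Leaving out 1 array took KCl as low as 1976, heat 1469, naive peroxide 125 and KCl against heat 848, and heat-primed against naive peroxide to between 0.0184% and 15.2% of genes, beside 3.34%. It took KCl-primed against naive peroxide from 8 to between 0 and 129, KCl-primed against heat-primed from 7 to between 0 and 45, peroxide against rich medium from 9 to between 0 and 2, and rich medium after KCl from 0 to 195 against untreated cells and to 109 against that after heat. Without 1 of a pair, the lone array is assumed to vary like the other groups. Over the called members the alternatives kept 750 calls and lost 223. The kept calls include those after averaging probe sets, which leaves the members' values unchanged because each had 1 probe set. The untreated levels of POX1, PEX18 and POT1 are limited by background.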
